A study of Homo sapiens with 25 samples.

Results

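SMAD3 and 6 further genes of TGF-beta signalling (SMAD6, SMAD7, TGFBR1, TGFBR2, SKIL and TGFB2) were described across the chromatin maps of 4 established lung adenocarcinoma cell lines. They are 7 of 19974 protein-coding genes on chromosomes 1 to 22 and X. For each gene, the peaks of 20 lists that overlapped the gene body or the 50 kb on either side of it were taken, and this stretch is called its window. SMAD3 was chosen by its number of NKX2-1 regions shared by the 4 lines, and the other genes as its partners in the pathway, so the NKX2-1 counts at SMAD3 describe how the gene was chosen and support nothing.

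NKX2-1 is a homeodomain transcription factor of the lung epithelial lineage, and the series title concerns the amplified dosage of its gene in this cancer. The lines HCC364, NCI-H441, NCI-H358 and NCI-H2087 were grown untreated in the same serum-containing medium and fixed for chromatin immunoprecipitation and sequencing (ChIP-seq). NKX2-1, H3K27ac (an acetylation of active promoters and enhancers) and H3K4me1 (a methylation typical of enhancers) were mapped in each line. NCI-H2087 was also mapped for c-Jun (a subunit of AP-1), the pioneer-type forkhead proteins FOXA1 and FOXA2, the HMG-box factor SOX2, EP300 (an acetyltransferase of H3K27), CTCF, which bounds chromatin loops, RNA polymerase II and H3K4me3, a mark of promoters. Each combination of line and antibody was 1 library, so no difference between lines or genes has a replicate check and no test was made. The 95% intervals given below are exact binomial (Clopper-Pearson) and cover counting error only. Neighbouring peaks count as independent in them, although 1 wide peak can cover several. Neither normal lung cells nor a line with altered NKX2-1 was among the samples.

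TGF-beta ligands bind a type II receptor kinase, which activates a type I receptor. The type I receptor phosphorylates SMAD2 and SMAD3, which join SMAD4 and act on genes together with other factors of the cell. SMAD6, SMAD7 and SKIL restrain the signal, and several of these genes are themselves induced by it. In epithelial cells the pathway is known for growth arrest and for the loss of epithelial traits.

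The lists held 75657 to 90578 NKX2-1 peaks, 47136 to 56384 H3K27ac peaks and 91807 to 121789 H3K4me1 peaks per line. The lowest local background of a list, solved from the peak values and used as a relative depth, was 2.54 to 2.85 fragments for NKX2-1 but only 1.13 for c-Jun and 1.52 for EP300, the 2 shallowest lists. As a check of cell type, H3K27ac was sought within 1 kb of the ends of marker genes. It lay there in 4 of 4 lines for the epithelial genes EPCAM, KRT7, KRT8 and CDH1 and the lung genes NKX2-1 and NAPSA. Of 4 genes of other cell types, PTPRC and PECAM1 had it in no line, COL1A1 in 4 lines and CD3E in 3. The check was thus met only in part, and it cannot tell the 4 lines apart.

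Sequences before 4 annotated starts are shown because what lay over these starts differed most among the genes, as described below for each. Each is the 250 bases before the start, 5′ to 3′ on the plus strand, from RefSeq on GRCh38.p14. In the order printed they are chr15:67065352-67065601, chr15:67125492-67125741, chr15:66701986-66702235 and chr3:30606106-30606355. Capitals mark a match to one of 4 motifs searched on both strands, none of which overlaps another: CACTNNAG (NKX2 core), TGANTCA (AP-1), TGTTTAC (forkhead) and GTCTAGAC (a palindrome of the SMAD-binding letters GTCT).
SMAD3, start 67065602: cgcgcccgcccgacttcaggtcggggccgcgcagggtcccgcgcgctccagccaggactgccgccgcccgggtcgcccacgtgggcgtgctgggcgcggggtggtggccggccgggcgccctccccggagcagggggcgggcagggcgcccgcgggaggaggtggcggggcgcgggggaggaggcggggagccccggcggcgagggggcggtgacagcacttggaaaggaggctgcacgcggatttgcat
SMAD3, start 67125742: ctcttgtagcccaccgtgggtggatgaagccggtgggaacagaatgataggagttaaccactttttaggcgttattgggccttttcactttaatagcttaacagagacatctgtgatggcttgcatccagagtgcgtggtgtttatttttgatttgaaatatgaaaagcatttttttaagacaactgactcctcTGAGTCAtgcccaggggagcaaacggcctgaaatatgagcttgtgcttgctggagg
SMAD6, start 66702236: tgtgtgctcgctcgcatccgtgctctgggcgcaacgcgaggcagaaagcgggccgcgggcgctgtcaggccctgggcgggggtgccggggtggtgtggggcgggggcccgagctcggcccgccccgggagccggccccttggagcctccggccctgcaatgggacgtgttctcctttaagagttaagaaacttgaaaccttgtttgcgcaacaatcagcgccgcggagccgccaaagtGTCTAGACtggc
TGFBR2, start 30606356: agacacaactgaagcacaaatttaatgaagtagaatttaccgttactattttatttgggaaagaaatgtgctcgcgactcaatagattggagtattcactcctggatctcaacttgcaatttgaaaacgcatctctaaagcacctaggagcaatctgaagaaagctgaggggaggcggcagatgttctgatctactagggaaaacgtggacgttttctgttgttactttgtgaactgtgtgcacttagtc
Of 34789 windows of this length before annotated starts, 10.6% held the NKX2 core, 6.55% the AP-1 motif, 2.98% the forkhead motif and 0.184% the SMAD palindrome. The 21 windows of the 7 genes held 2 matches in all, both printed above. The window of the first SMAD3 start was 80.8% G and C and that of the start 67125742, which lies within the gene, 44.8%, where TGAGTCA begins 56 bases before the start. In the SMAD6 window, 68.0% G and C, GTCTAGAC begins 12 bases before the start. The TGFBR2 window, 40.8% G and C, held none of the motifs. A match is a description of the letters and not a binding site.

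SMAD3, the receptor-regulated SMAD that carries the signal to chromatin, lies on chromosome 15 from 67065602 to 67195169 (GRCh38, plus strand, 5 annotated starts). Its window held 27 NKX2-1 peaks in NCI-H2087, 41 in HCC364 and 37 each in NCI-H358 and NCI-H441. Per 100 kb these were 11.8, 16.1, 16.1 and 17.9 peaks (here and below, 4 values in a row stand for NCI-H2087, then NCI-H358, then NCI-H441, then HCC364), where the median gene had 3.78, 3.52, 4.69 and 4.36. The other protein-coding gene in the window is AAGAB. Merging the peaks of the 4 lines gave 49 NKX2-1 regions, of which 19 (38.8%, 25.2 to 53.8%) were found in 4 lines; over the genome 22.3% of 145799 regions were.

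H3K27ac covered a large part of the SMAD3 window in every line. The covered length was 99.8, 109, 95.9 and 141 kb, longest in HCC364. These lengths are 43.5%, 47.4%, 41.8% and 61.3% of the window, against medians over all genes of 3.80%, 3.43%, 3.41% and 4.65%. By this share SMAD3 ranked 2, 6, 5 and 3 among the 19974 genes. H3K4me1 covered 39.2%, 47.2%, 42.9% and 56.4% in the same order of lines, ranks 3, 1, 4 and 5.

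The number of H3K27ac peaks gave another order of the lines than the covered length. NCI-H2087 had 31 peaks at SMAD3, NCI-H358 22, NCI-H441 24 and HCC364 14, the fewest in the line with the longest cover. HCC364 had few and wide peaks, the widest of 45.0 kb (chr15:67113000-67158036). The map of the SMAD3 window shows H3K27ac from near the first start, with short gaps, over most of the gene in each line. H3K4me1 within the gene began later, at 3.91, 3.99, 3.99 and 4.55 kb from the first start.

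**Figure D1:**
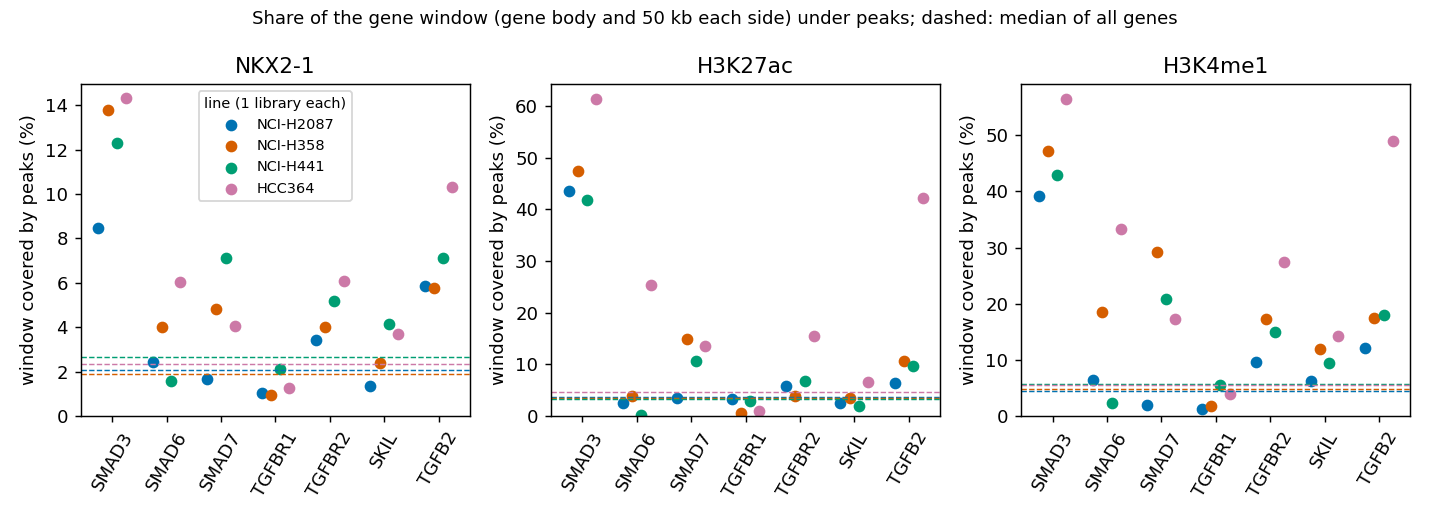
Share of each gene window (gene body and 50 kb on each side) covered by NKX2-1, H3K27ac and H3K4me1 peaks, in percent, with 1 point per line and library; dashed lines are the medians of all genes in the same line. SMAD3 lies at 41.8% to 61.3% for H3K27ac, and the HCC364 points of SMAD6 and TGFB2 lie at 25.4% and 42.2%, far above their other lines.

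Within the SMAD3 gene body lay 33 NKX2-1 regions, of which 16 were found in 4 lines. A further 13 lay before the gene, 3 of them in 4 lines, and 3 lay after it, none in 4 lines. Without an exon table, intronic and exonic positions were not told apart. Of the 33 regions, 20 were bound in NCI-H2087, 30 in HCC364, 25 in NCI-H358 and 26 in NCI-H441. H3K27ac overlapped 31 of the 33 in 4 lines and H3K4me1 28, beside the wide cover by both marks given above. Of the 16 found in 4 lines, H3K27ac overlapped 16 in 4 lines and H3K4me1 14. Over all NKX2-1 regions found in 4 lines these shares were 50.6% and 59.4%. The share over all regions, whatever their number of lines, is not given here, so the counts out of 33 only describe the gene.

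The folds of the shared regions, the authors' values of the summit over its local background, come from lists made separately, so an order of the lines by fold can differ from one by the place of each fold within its list. The strongest region by median fold over lines was chr15:67106700-67107824, 41.7 kb into the gene. Its folds were 24.4, 31.3, 24.8 and 39.9, above 92.3%, 97.4%, 90.9% and 96.3% of the peaks of the list. FOXA1, FOXA2, c-Jun, EP300 and RNA polymerase II peaks overlapped it in NCI-H2087. It was high in all 4 lines, unlike several other shared regions.

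Near the first start, chr15:67068775-67069685 had folds of 22.8, 15.2, 30.6 and 27.9, with FOXA1 and FOXA2. At chr15:67073635-67075536 the folds were 26.4, 10.4, 12.4 and 9.66, highest in NCI-H2087, with FOXA1, FOXA2, SOX2 and EP300. This was the only SOX2 peak of the window (chr15:67074143-67074720, fold 6.26). The 880 bp region chr15:67075938-67076817, with FOXA1, FOXA2 and c-Jun, had folds of 13.6, 7.36, 14.1 and 9.57.

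Between the first start and the second lay 3 further regions found in 4 lines. At chr15:67085650-67086761 the folds were 8.97, 20.5, 16.8 and 22.9, lowest in NCI-H2087, with FOXA1 and FOXA2. The neighbours chr15:67089047-67090072 (8.00, 5.31, 6.96 and 12.0) and chr15:67090188-67092038 (9.98, 7.36, 11.9 and 16.5) were weaker and both carried FOXA1, FOXA2 and c-Jun. Beyond the second start, chr15:67101278-67102823 reached 19.4, 18.4, 27.2 and 34.2 with FOXA1 and FOXA2. At chr15:67105148-67105864, where CTCF lay as well as FOXA1, FOXA2, c-Jun and EP300, the folds were 7.50, 10.0, 12.7 and 14.9.

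The widest shared region, chr15:67123471-67128840 (5370 bp), spanned the third start at 67125742, whose preceding bases are printed above. Its NKX2-1 folds, those of the highest peak of each line within it, were 10.1, 22.1, 22.3 and 15.3. In NCI-H2087 the peaks over the printed TGAGTCA had folds of 12.9 for c-Jun, 29.0 for FOXA1 and 26.2 for FOXA2. The c-Jun summit lay 21 bases from these letters and the summit of the NKX2-1 peak there in NCI-H2087 (fold 7.84) also 21 bases. In HCC364 the NKX2-1 summit lay 39 bases away, but in NCI-H358 and NCI-H441 the highest point of the wide peak was 1815 and 1829 bases away. The 4 lines thus shared the region and not 1 summit.

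A group of 3 neighbouring regions followed the fourth start. They were chr15:67146057-67147838 (folds 21.0, 21.6, 16.3 and 9.22), chr15:67148063-67148985 (21.0, 11.4, 15.2 and 16.8) and chr15:67149187-67151083 (15.1, 19.4, 18.2 and 21.0). All 3 carried FOXA1, FOXA2, c-Jun and RNA polymerase II in NCI-H2087, and the middle one EP300 (fold 5.99). The strongest H3K27ac peaks of the window in NCI-H2087 (fold 52.8) and NCI-H441 (52.5) had their summits here, 84.4 kb into the gene.

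Toward the end of the gene lay 3 more shared regions. At chr15:67156351-67157323 the folds were 12.0, 9.42, 28.9 and 11.3, highest in NCI-H441, with FOXA2. At chr15:67163765-67165012 they were 6.31, 7.65, 16.8 and 32.2, with CTCF and none of the other factors. The last, chr15:67174773-67175456, had 6.69, 6.54, 5.78 and 12.9 and carried FOXA1, FOXA2 and c-Jun.

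Before the gene, chr15:67047773-67050429 had folds of 10.9, 7.72, 28.0 and 38.5 and H3K27ac in 4 lines, with FOXA1, FOXA2 and c-Jun. The other 2 shared regions there lacked H3K27ac in at least 2 lines. At chr15:67043835-67044696 the folds were 6.03, 8.96, 9.86 and 33.2, with H3K27ac in NCI-H2087 and HCC364. At chr15:67037060-67037688, with 5.76, 7.54, 12.9 and 8.52, no line had H3K27ac and none of the factors was found.

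**Figure D2:**
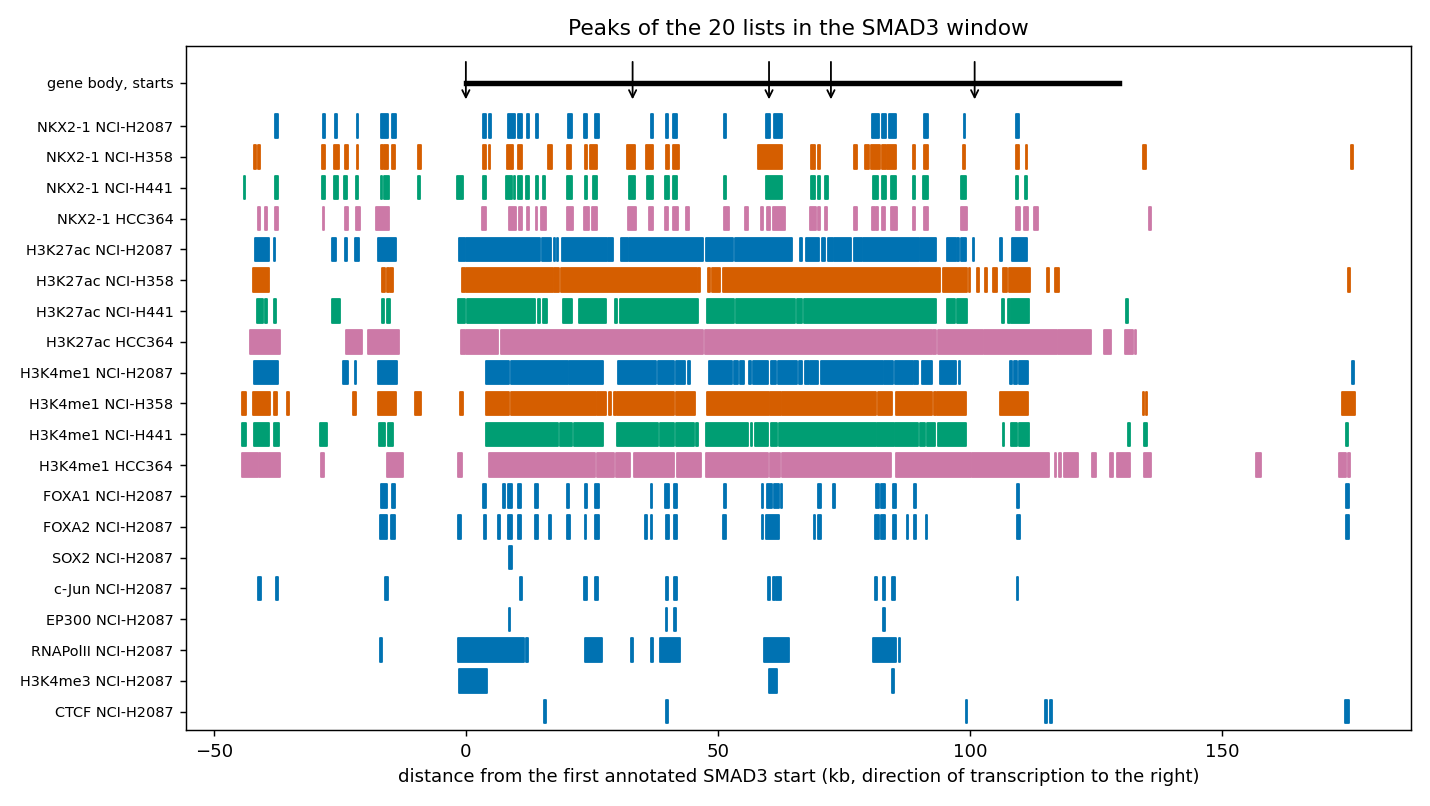
Peaks of the 20 lists in the SMAD3 window, each a bar from start to end in kb from the first annotated start; rows are antibody and line, the black bar is the gene body and arrows are the 5 annotated starts. H3K27ac and H3K4me1 fill most of the gene body in each line, while the 4 EP300 peaks, 1 SOX2 peak and 15 c-Jun peaks of NCI-H2087 lie at few places.

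**Figure D3:**
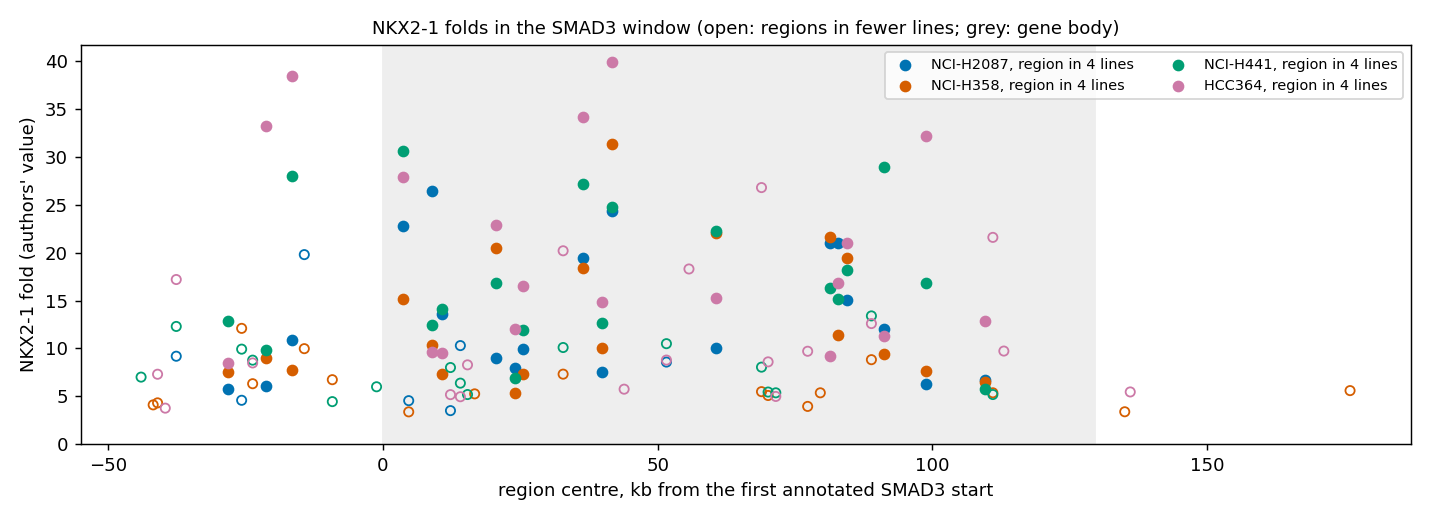
NKX2-1 fold (the authors' value, linear axis) of each region in the SMAD3 window against its centre in kb from the first annotated start; colours are lines, filled points are regions found in 4 lines, open points regions in fewer lines, and grey is the gene body. HCC364 had the highest fold at 11 of the 19 regions found in 4 lines, and the highest single fold was 39.9.

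Among the 19 shared SMAD3 regions HCC364 had the highest fold at 11, NCI-H441 at 5, NCI-H2087 at 2 and NCI-H358 at 1. By the share of the list below each fold, HCC364 was highest at 8, NCI-H358 at 5 and NCI-H441 and NCI-H2087 at 3 each, so NCI-H358 went from last to second. The median folds over the 19 were 10.9, 10.0, 16.3 and 16.5. Over all peaks in shared regions of the genome they were 10.6, 9.94, 13.3 and 13.3, so NCI-H441 and HCC364 also had the higher folds elsewhere.

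The factors of NCI-H2087 were counted at the regions of the SMAD3 gene body. Of the 16 regions shared by 4 lines, 14 carried FOXA1, 15 FOXA2, 12 RNA polymerase II, 10 c-Jun and 4 EP300. Among them 1 carried none of FOXA1, FOXA2, SOX2, c-Jun and EP300. All 16 had an NKX2-1 peak in NCI-H2087 by definition. The same shares over all shared regions of the genome are not given here. Of all NKX2-1 peaks of NCI-H2087, single peaks and not merged regions, 53.8% overlapped FOXA1 and 58.6% FOXA2. RNA polymerase II overlapped 24.8% of them, c-Jun 27.6% and EP300 9.24%. Of the 17 gene-body regions found in fewer lines, 4 carried FOXA1 and 0 c-Jun. Of these 17, NCI-H2087 itself bound 4, so most of them had no NKX2-1 peak in the line where the factors were mapped.

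Of the gene-body regions, 17 were not shared by 4 lines, and NCI-H2087 was the line most often unbound at them. It also had the fewest NKX2-1 peaks (75657), and the matching pattern over all regions is not given here. In 5 of the 17 only NCI-H2087 was not bound and in 3 only NCI-H358. A further 4 were bound in 2 lines, 3 in HCC364 only and 2 in NCI-H358 only. The strongest fold among them was 26.8, in HCC364 at chr15:67133957-67135047, where NCI-H358 had 5.49 and NCI-H441 8.05. The region bound only in HCC364 with the highest fold was chr15:67120997-67121622 (18.3), where all 4 lines had H3K27ac.

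The 5 annotated starts of SMAD3 differed in the marks within 1 kb. At the first start, 67065602, H3K27ac folds were 23.5, 63.4, 32.5 and 20.4, and in NCI-H2087 H3K4me3 reached 193 and RNA polymerase II 13.4. NKX2-1 was found there in NCI-H441 only (6.0). At the third, 67125742, NKX2-1 was found in 4 lines and RNA polymerase II was higher (23.5), while H3K4me3 was lower (12.0). At the second, 67098679, NKX2-1 had folds of 20.2 in HCC364, 10.1 in NCI-H441 and 7.32 in NCI-H358 and no peak in NCI-H2087. No line had NKX2-1 at the last, 67166531. At the fourth, 67138021, NKX2-1 was found in NCI-H441 (5.37) and HCC364 (4.99) only. Among the 5 starts NKX2-1 was thus found in the most lines at the third and then the second. At the G and C rich first one it was found in NCI-H441 only. Of the 33 NKX2-1 regions of the gene body, 3 lay within 1 kb of a start, so most lay away from starts.

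SMAD6, an inhibitory SMAD known mostly for restraining the BMP branch, lies on the same chromosome from 66702236 to 66782849, with no other protein-coding gene in its window. Its window held 10, 16, 7 and 18 NKX2-1 peaks, the most in HCC364, and 5 of its 25 regions were found in 4 lines (20.0%, 6.83 to 40.7%). The lines differed more in the histone marks. H3K27ac covered 45.8 kb in HCC364, 7.12 kb in NCI-H358, 4.52 kb in NCI-H2087 and 0.501 kb in NCI-H441. H3K27ac peaks numbered 7, 7, 1 and 20, and 16 of 22 H3K27ac regions were found in HCC364 only; over all regions 21.9% were.

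HCC364 had 11.3 times the H3K27ac-covered length of the mean of the other lines at SMAD6, and 43.2 times with the 20000 strongest peaks of each list. H3K4me1 was likewise widest in HCC364, with 30 peaks against 12, 20 and 6. The local background at the SMAD6 peaks of HCC364 was 0.863 (H3K27ac) and 1.05 (NKX2-1) times the list median, and 1.06 times for H3K4me1.

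At the SMAD6 start, whose sequence is printed above, NKX2-1 had folds of 23.2 in HCC364, 8.49 in NCI-H358 and 8.22 in NCI-H2087 and no peak in NCI-H441. H3K27ac followed the same lines, with 20.9, 11.4 and 6.69 in that order and none in NCI-H441. The NKX2-1 summits lay 50, 39 and 54 bases from the printed GTCTAGAC. In NCI-H2087 FOXA1 (12.0), FOXA2 (11.8), RNA polymerase II (5.94) and H3K4me3 (89.1) covered the same place.

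The strongest shared NKX2-1 region of SMAD6, chr15:66815211-66815986, lay after the gene and had folds of 39.5, 4.76, 23.6 and 43.8. NCI-H358 was low there. No line had H3K27ac at it, although FOXA1 and FOXA2 were found in NCI-H2087. Of the 5 shared SMAD6 regions 1 had H3K27ac in 4 lines (0.505 to 71.6%) and 3 in none (14.7 to 94.7%), against 17 and 1 of the 19 at SMAD3. Over all shared regions 50.6% had it in 4 lines and 17.0% in none, and both SMAD6 intervals hold these shares.

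SMAD7, the inhibitory SMAD that binds the type I receptor and is a direct target of SMAD3, lies on chromosome 18 from 48919853 to 48950965 on the minus strand. Its window held 6, 11, 18 and 8 NKX2-1 peaks, the most in NCI-H441. H3K27ac covered 4.58, 19.5, 14.0 and 17.7 kb and H3K4me1 2.52, 38.3, 27.3 and 22.5 kb. NCI-H2087 was the lowest line for all 3 antibodies. Its 6 NKX2-1 peaks overlapped H3K27ac at 4 and H3K4me1 at 0 (exact interval of the share 0 to 45.9%).

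At the 2 upstream starts of SMAD7, H3K27ac reached 50.8 in NCI-H358 and no peak was found within 1 kb in NCI-H2087, although H3K4me3 was there (55.9). NCI-H2087 did have an H3K27ac peak of fold 13.1 with its summit 1.45 kb before the first start. NKX2-1 was found within 1 kb of these starts in none of the lines, and NCI-H441 had a peak of fold 7.53 at 1504 bases before the first (chr18:48952469-48952900). The shared region with the highest median fold, chr18:48993604-48994686, lay 43.2 kb before the gene and had folds of 9.60, 12.6, 23.3 and 23.6. Strong FOXA1 (53.5) and FOXA2 (77.3) peaks lay 4.24 and 4.26 kb into the gene, at a shared NKX2-1 region with folds of 12.3, 14.2, 12.7 and 15.8.

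The receptors gave contrasting pictures. TGFBR2, the type II receptor kinase, lies on chromosome 3 from 30606356 to 30694142. It had 12, 14, 17 and 15 NKX2-1 peaks, and 9 of its 20 regions were found in 4 lines (45.0%, 23.1 to 68.5%). TGFBR1, the type I receptor kinase, lies on chromosome 9 from 99103647 to 99154192, with COL15A1 also in its window. It had 4, 4, 6 and 5 NKX2-1 peaks, and 1 of its 11 regions was found in 4 lines. By shared regions per 100 kb TGFBR2 stood at percentile 90.8 of all genes and TGFBR1 at 24.8.

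At TGFBR2 the strongest shared region covered both annotated starts. NKX2-1 folds at chr3:30606054-30606688 were 30.3, 22.8, 48.3 and 54.5, above 94.0%, 98.8% and 98.5% of the list in the last 3 of these lines. In NCI-H2087 FOXA2 (54.7), FOXA1 (39.9), c-Jun (17.7) and H3K4me3 (120.2) covered the same start, and RNA polymerase II was weak (5.82). H3K27ac folds within 1 kb differed little between lines, with 18.2, 17.9, 19.6 and 17.8. The printed TGFBR2 window holds none of the 4 motifs, which says nothing about the factors.

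A second TGFBR2 region, chr3:30597021-30598012, 8.84 kb before the start, carried FOXA1, FOXA2, SOX2, c-Jun and EP300 in NCI-H2087, with NKX2-1 folds of 25.8, 16.1, 25.8 and 33.4 and H3K27ac in 4 lines. Within the gene, chr3:30659154-30660048 had the strongest NKX2-1 peak of NCI-H2087 (30.9) beside FOXA1 (68.2), FOXA2 (72.1) and lower NKX2-1 folds of 13.5, 26.1 and 10.9 in the other lines. H3K27ac covered 11.1, 7.45, 12.9 and 29.3 kb of the TGFBR2 window, the most in HCC364. LOC105377015 and GADL1 also lie in it.

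At TGFBR1 the 8 annotated starts lay within a few kb and had H3K4me3 (up to 99.3) and RNA polymerase II (7.53) in NCI-H2087. H3K27ac was found in 4 lines, with 10.3, 10.2, 9.53 and 15.7. NKX2-1 was found at these starts in HCC364 only (6.47). The single shared region, chr9:99056971-99057635, lay 46.3 kb before the gene and had folds of 14.5, 9.15, 16.5 and 12.4 with FOXA1, FOXA2 and c-Jun. H3K27ac covered 4.92, 0.951, 4.50 and 1.44 kb, with HCC364 among the lower lines here.

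SKIL, a corepressor that binds SMAD proteins, lies on chromosome 3 from 170357715 to 170396849, with CLDN11 also in its window. It had 4, 8, 13 and 10 NKX2-1 peaks, the fewest in NCI-H2087, and 4 of 15 regions were found in 4 lines. Its strongest shared region, chr3:170307643-170308496, had folds of 42.1, 19.8, 44.1 and 42.1. FOXA1 had a fold of 175 there and FOXA2 one of 177, above 99.9% of the FOXA2 list, and c-Jun (20.8), SOX2 (9.85) and EP300 (6.52) were present. This region lay 49.6 kb before the start, across the edge of the window, and H3K27ac was found at it in 1 line and H3K4me1 in 4.

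The SKIL start had NKX2-1 in 4 lines with low folds of 4.08, 4.83, 6.85 and 7.32. H3K27ac there reached 20.2, 37.0, 21.7 and 24.4, and H3K4me3 (114), RNA polymerase II (9.01) and CTCF (21.8) were found in NCI-H2087. SKIL was the gene with CTCF at the largest share of its NKX2-1 peaks, 2 of 4 (6.76 to 93.2%). The interval holds the 20.6% of all NKX2-1 peaks.

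TGFB2, one of the TGF-beta ligands, lies on chromosome 1 from 218345336 to 218444619, with RRP15 also in its window. It had 19, 17, 21 and 28 NKX2-1 peaks, the most in HCC364, and 11 of 32 regions were found in 4 lines (34.4%, 18.6 to 53.2%). H3K27ac covered 12.9 kb, 21.3 kb, 19.3 kb and 84.1 kb, or 42.2% of the window in HCC364, rank 76 of all genes. HCC364 had 4.72 times the mean of the other lines, and 23 of 32 H3K27ac regions were found in HCC364 only. H3K4me1 covered 24.0, 34.6, 35.8 and 97.6 kb, rank 14 in HCC364.

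The local background at TGFB2 moved with this difference. Relative to the list median it was 1.60 for NKX2-1, 1.53 for H3K27ac and 1.58 for H3K4me1 in HCC364, and 0.909 to 1.26 in the other lines. The part of this higher background in the TGFB2 values of HCC364 was not tested. At SMAD3 the same ratio was 1.11 to 1.27 in HCC364 and 0.840 to 1.19 in the other lines.

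At the TGFB2 start NKX2-1 had folds of 21.9 in HCC364, 4.53 in NCI-H2087 and 4.33 in NCI-H358 and no peak in NCI-H441. H3K27ac there was 12.2, 18.4, 5.20 and 46.8, lowest in NCI-H441 and highest in HCC364. The shared region with the highest median fold, chr1:218380271-218381122, had 14.5, 10.1, 22.2 and 51.7. It lay 35.4 kb into the gene, had H3K27ac in 4 lines and carried FOXA2 in NCI-H2087. After the gene, chr1:218488712-218489617 carried FOXA1, FOXA2, SOX2, c-Jun and EP300, with NKX2-1 folds of 27.5, 7.50, 18.6 and 15.3, highest in NCI-H2087.

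Over the 7 windows, 53 of 172 NKX2-1 regions (30.8%, 24.0 to 38.3%) were found in 4 lines, against the 22.3% of all regions. SMAD3, chosen by this count, supplied 19 of the 53, and without it the share was 34 of 123 (27.6%, 20.0 to 36.4%), an interval that holds the share of all. With the 20000 strongest peaks of each list the share was 14.5%, against 15.4% of all regions, so the higher share near these genes was not seen among the strongest peaks. A further 27 regions were found in 3 lines, 36 in 2 and 56 in 1. Of all 145799 regions 24956 were found in 3 lines, 29702 in 2 and 58607 (40.2%) in 1. NCI-H2087 was the only line bound at 0 of the 172 regions, HCC364 at 24 and NCI-H358 and NCI-H441 at 16 each. Over all regions 6.65% were bound in NCI-H2087 only, 14.0% in HCC364 only, 9.09% in NCI-H358 only and 10.5% in NCI-H441 only. Regions missing in 1 line only numbered 12 for NCI-H2087, 9 for NCI-H358 and 3 each for NCI-H441 and HCC364. The matching shares over all regions are not given here, so these counts only describe the windows. NCI-H2087 also had the fewest NKX2-1 peaks, 75657.

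H3K27ac regions of the 7 windows were found in 4 lines at 23 of 120 (19.2%, 12.6 to 27.4%), against 23.9% of all H3K27ac regions. HCC364 alone had 59 of the 120, where it had 21.9% of all regions alone, and 39 of these 59 lay at TGFB2 and SMAD6. Leaving out HCC364, 34.9% of the H3K27ac regions were found in each of the other 3 lines, against 35.0% of all. H3K4me1 regions were found in 4 lines at 40 of 161 (24.8%, 18.4 to 32.3%), against 21.2%, and in HCC364 only at 47, against 19.6%. Of the 47, SMAD6 and TGFB2 held 11 each. HCC364 thus had the most regions of its own in both histone marks.

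**Figure D4:**
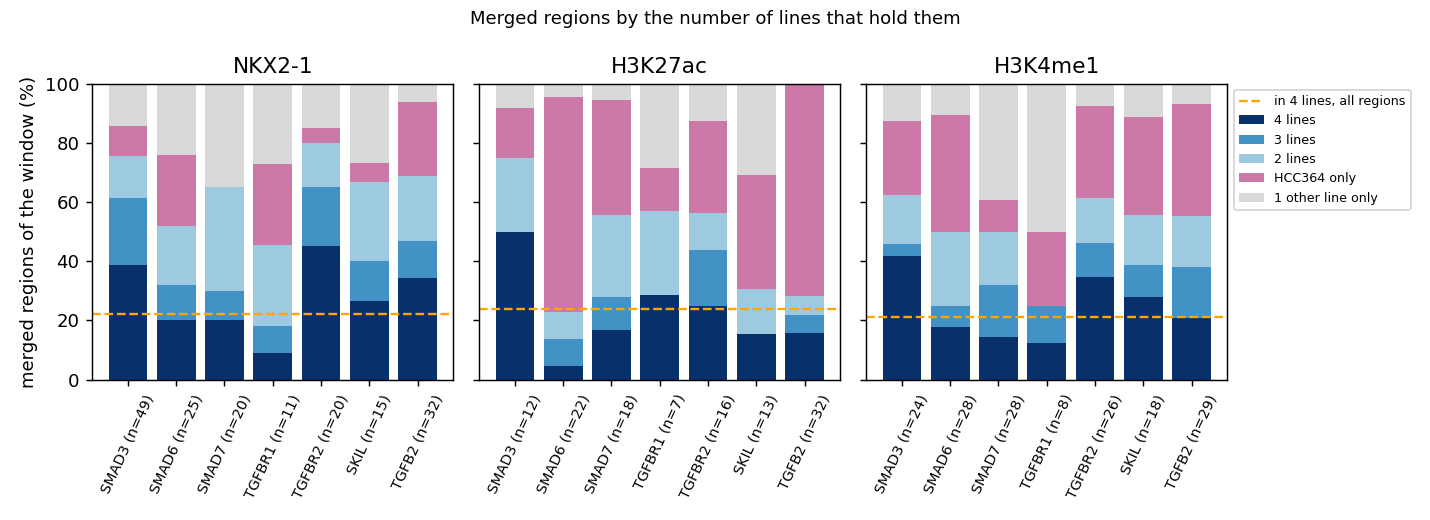
Merged NKX2-1, H3K27ac and H3K4me1 regions of each gene window by the number of lines that hold them, in percent of the n regions given under each bar, with regions of HCC364 only in pink. The dashed line is the share found in 4 lines over all regions (22.3%, 23.9% and 21.2%). Pink takes 23 of 32 H3K27ac regions at TGFB2 and 16 of 22 at SMAD6, but 2 of 12 at SMAD3.

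At the 53 NKX2-1 regions found in 4 lines, H3K27ac was found in 4 lines at 33 (62.3%, 47.9 to 75.2%), where 50.6% of all such regions had it. SMAD3 held 17 of the 33, TGFB2 7, SMAD7 3, TGFBR2 3 and the other genes 1 each. Without SMAD3 the share was 16 of 34 (47.1%, 29.8 to 64.9%), below that of all, and with the 20000 strongest peaks of each list it was 33.3%, against 38.2%. Counting only 250 bp on each side of the summits, the share was 13.7%, against 27.4% of all; that setting counts a mark only near its own summit and turns the order of the members and of all regions. H3K4me1 was found in 4 lines at 38 of the 53 (71.7%, 57.7 to 83.2%), against 59.4%, and without SMAD3 at 67.6% (49.5 to 82.6%). None of the 53 lacked H3K4me1 in all lines (0%, 0 to 6.72%), where 10.6% of all such regions did.

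The 56 NKX2-1 regions found in 1 line had H3K27ac in that line at 32 (57.1%, 43.2 to 70.3%) and H3K4me1 at 45 (80.4%, 67.6 to 89.8%). Over all regions of 1 line these shares were 31.1% and 56.9%. In the lines without the NKX2-1 peak, H3K27ac was found in 28.6% and H3K4me1 in 47.0% of 168 combinations of region and line, against 9.99% and 20.9% over all. Without SMAD3 the shares in the line with the peak were 54.5% and 77.3%, and 29 and 55 of 132 combinations without the peak had the marks, each share still above that over all.

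In NCI-H2087 the 82 NKX2-1 peaks of the 7 windows overlapped FOXA1 at 44 (53.7%) and FOXA2 at 47 (57.3%), shares close to the 53.8% and 58.6% of all 75657 NKX2-1 peaks. The c-Jun share was 37.8% (27.3 to 49.2%), against 27.6%, and the EP300 share 9.76%, against 9.24%. SOX2 overlapped 5 of the 82 (6.10%, 2.01 to 13.7%), against 11.6%, and CTCF 9 (11.0%, 5.14 to 19.8%), against 20.6%. At least 3 of the 5 factors FOXA1, FOXA2, SOX2, c-Jun and EP300 were found at 27 peaks (32.9%, 22.9 to 44.2%), against 26.6%. The interval holds the share of all peaks for each of these except CTCF. Without SMAD3, which held 13 of the 27, at least 3 factors were found at 14 of 55 (25.5%), c-Jun at 32.7%, FOXA1 at 45.5%, FOXA2 at 49.1% and CTCF at 14.5% (6.50 to 26.7%), whose interval then holds the share of all.

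At SMAD3 the shares with RNA polymerase II, H3K27ac, H3K4me1 and, narrowly, c-Jun were above those of all NKX2-1 peaks, and the CTCF share was below. Each of these shares of all lay outside the binomial interval. That interval counts neighbouring peaks of 1 locus as independent, so it does not measure how far SMAD3 differs. The RNA polymerase II overlaps came from 8 RNA polymerase II peaks and the H3K27ac overlaps from 13 H3K27ac peaks. RNA polymerase II overlapped 16 of the 27 NKX2-1 peaks of SMAD3 (59.3%, 38.8 to 77.6%), against 24.8% of all. The other 6 genes together had 4 of 55. H3K27ac overlapped 26 of the 27 (96.3%, 81.0 to 99.9%), against 52.5%, and H3K4me1 23 (85.2%, 66.3 to 95.8%), against 61.7%. CTCF overlapped 1 of the 27 (3.70%, 0.0937 to 19.0%). The c-Jun share was 48.1% (28.7 to 68.1%), against 27.6%, and at least 3 of the 5 factors were found at 13 of 27. SMAD7 had c-Jun, SOX2 and EP300 at 0 of its 6 NKX2-1 peaks, and SMAD6 had SOX2 and EP300 at 0 of 10, counts too small to show a difference.

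**Figure D5:**
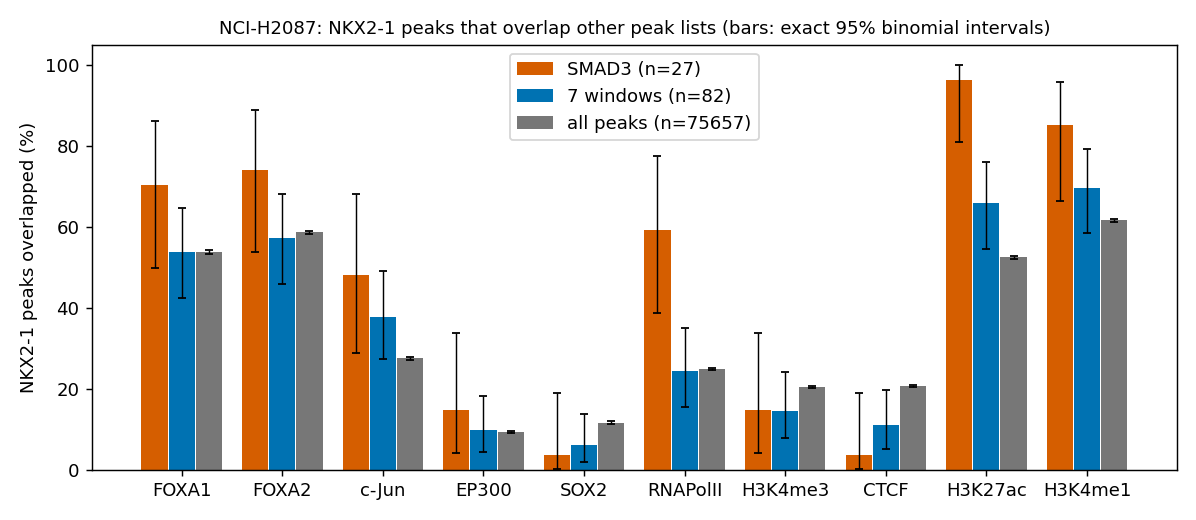
Share of NCI-H2087 NKX2-1 peaks that overlap each other list of that line, in percent, for the SMAD3 window (27 peaks), the 7 windows together (82, SMAD3 included) and all peaks (75657); error bars are exact 95% binomial intervals. RNA polymerase II stands at 59.3% at SMAD3 and 24.4% over the 7 windows, while FOXA1 and FOXA2 over the 7 windows are near their shares of all peaks.

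Seen from the other factors, all 8 EP300 peaks and all 5 SOX2 peaks of the 7 windows overlapped an NKX2-1 peak, and 32 of 36 c-Jun peaks did. Over all peaks of these lists the shares were 96.3%, 96.5% and 91.3%, so near these genes they were as usual. FOXA1 peaks overlapped NKX2-1 at 46 of 63 (73.0%, against 60.9%) and CTCF peaks at 9 of 36 (25.0%, against 25.3%). EP300 lay 4 times at SMAD3, 2 times at TGFB2 and 1 time each at TGFBR2 and SKIL, and at none of SMAD6, SMAD7 and TGFBR1.

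At the annotated starts, H3K27ac was found in 4 lines at 5 of the 7 genes, against 52.8% of 15812 genes; the exceptions were SMAD6, without it in NCI-H441, and SMAD7, without it in NCI-H2087. NKX2-1 was found in 4 lines at a start of 3 genes (SMAD3, TGFBR2 and SKIL), against 33.8%. H3K4me3 was found in NCI-H2087 at all 7 and RNA polymerase II at 6, against 69.2% and 56.9%. The exception, SMAD7, had its RNA polymerase II summit at -1.72 kb, before the first start. These counts are small, and no share of them was tested.

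Other genes of the pathway were counted by the NKX2-1 regions found in 4 lines within their windows. Of 47 such genes 44 had at least 1, with a median of 3.00, where 80.5% of all genes had at least 1 and the median was 2.00. Per 100 kb of window the medians were 2.71 and 1.68. All 7 genes of latent TGF-beta binding and activation had at least 1, with a median of 9.0 (3.38 per 100 kb), led by LTBP2 (14) and LTBP3 (13), both latent TGF-beta binding proteins. SMAD corepressors and ubiquitin ligases had it at 6 of 6, with a median of 7.50 and the highest median per 100 kb (4.53), led by the ubiquitin ligase SMURF2 (12) and the corepressor TGIF1 (9).

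The 10 target genes of the pathway all had at least 1 shared region, with a median of 3.00 (2.94 per 100 kb), led by ID1 (13), an inhibitor of helix-loop-helix factors. Of the 10 receptors and co-receptors all had at least 1, with a median of 2.50, but per 100 kb the median was 1.02, below that of all genes. ACVR1 had 7, and ENG, TGFBR3 and BMPR1B had 4 each. Ligands had it at 7 of 9, with a median of 2.00 (1.66 per 100 kb), led by TGFB1 (6) and GDF15 (4). The other SMADs had the lowest medians of these lists by both measures, 1.00 and 0.646 per 100 kb, with 4 at SMAD1, 1 each at SMAD4, SMAD5 and SMAD9 and 0 at SMAD2. SMAD3 itself had 19, more than any pathway gene named here.

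By shared regions per 100 kb SMAD3 stood at percentile 99.1 of all genes, TGFB2 at 93.9, TGFBR2 at 90.8, SMAD7 at 76.0, SKIL at 73.2, SMAD6 at 71.1 and TGFBR1 at 24.8. Genes on other chromosomes whose peaks per 100 kb over the 20 lists were most like those of SMAD3 were KLF6 (Euclidean distance of log2 values 1.66), KPNA7 (1.82) and MYH9 (1.82), where the median gene had 6.82. Their windows held 11, 12 and 19 NKX2-1 regions found in 4 lines.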

How the data were processed

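The 25 samples were 20 ChIP-seq libraries with a peak list and 5 input libraries, which were not analysed here. The submitters' processing notes name MACS2 2.1.1 and 2.2.7.1, bedtools, Bowtie2 2.2.9, Trimmomatic 0.36 and SAMtools 1.9 and the build hg38 (GRCh38), with no role given for each tool. The authors deposited 1 peak list per library, with a fold of the summit over local background (a linear ratio). The deposited lists also hold −log10 p and −log10 q values, the lowest −log10 q being 3.00 to 3.14. The use of inputs in peak calling is not stated in these notes. A peak can be missing because of depth, antibody or threshold.

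Groups were taken from the sample titles, with 1 library each, so nothing was tested. Peaks were merged over the 4 lines for each antibody, and an overlap of at least 1 bp counted as present. The local background was solved from the authors' fold ratio and −log10 p within 0.01. Python 3.11.15, numpy 2.4.6, pandas 2.3.3, scipy 1.17.1 and matplotlib 3.10.9 were used, and interval counts were checked against simulated data. Gene positions, starts and sequences came from RefSeq tables of GRCh38.p14, where all 7 genes were found. Exons were not analysed here.

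The members and lists were chosen with earlier results of these data known. The text names the 7 genes and the 2 genes of each pathway list with most shared regions, with ties, of which 1 is not reported here. It adds the 3 genes most like SMAD3 by Euclidean distance on log2(peaks per 100 kb + 1), each shared region of SMAD3 and the strongest of each other gene. Other regions named (carrying at least 3 factors, bound in fewer lines, or at a start) were chosen after their values were seen.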

Additional observations from a re-analysis of the deposited data

How the results depend on the processing

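Of 46 values of the 5 main shares under other settings, 36 moved by less than the interval of the value reported and 10 by more. Windows of 10 kb gave 75.8% for H3K27ac in 4 lines at shared NKX2-1 regions. The 20000 strongest peaks of each list gave 33.3% for it (38.2% of all) and 14.5% for NKX2-1 regions found in 4 lines. With 250 bp on each side of summits, the H3K27ac share at shared NKX2-1 regions was 13.7% (27.4% of all). In that setting, which replaced whole peaks, 9.50% of H3K27ac regions (13.3% of all) and 6.78% of H3K4me1 regions were found in 4 lines. The H3K4me1 share over all regions is not given here for that setting. Without SMAD3, a setting chosen after seeing the data, the share for H3K27ac at shared NKX2-1 regions was 47.1%. With presence counted over 3 lines, the shares of NKX2-1 and of H3K27ac regions found in all lines rose whichever line was left out. They reached 39.5% for NKX2-1 without NCI-H358 and 34.9% for H3K27ac without HCC364. For H3K4me1 the share was 32.5% without NCI-H2087 but 24.7% without NCI-H358, against 24.8% over 4 lines. For H3K27ac at shared NKX2-1 regions it fell from 62.3% to 58.9% without NCI-H441 and to 58.9% without HCC364. The share of NKX2-1 peaks with at least 3 of 5 factors was 25.5% to 37.5%. Of the values for single genes under other settings, 14 moved and 13 stayed close to the value reported. SMAD3 held 19 NKX2-1 regions found in 4 lines, 16 with windows of 10 kb, 20 with 100 kb and 3 among the 20000 strongest peaks. With windows of 10 kb TGFB2 went from 11 to 5, SMAD6 from 5 to 1 and SKIL from 4 to 1. SMAD7 went from 4 to 2, TGFBR1 from 1 to 0 and TGFBR2 from 9 to 8. Among the 20000 strongest peaks each gene other than SMAD3 held 0 to 2. The H3K27ac-covered length of HCC364 over the mean of the other lines, an alternative chosen after seeing the data, was 1.39 to 1.63 at SMAD3 and 4.60 to 4.72 at TGFB2. At SMAD6 this ratio was 11.3 to 43.2. The cause of these changes was not tested. No paired analysis was possible because each line and antibody is 1 library and no test was made. The c-Jun and EP300 lists had the lowest depth, which limits what a missing peak there shows.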
